A study of Mus musculus with 20 samples.

Results

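The 10 genes described here are the 4 Clk kinases (Clk1, Clk2, Clk3 and Clk4), the cyclins Ccnl1 and Ccnl2, and Leng8, Wsb1, Pabpn1 and Fnbp4. All 10 were measured among 19722 genes at 4 h and among 51912 gene identifiers at 24 h of serum exposure, and all 10 passed the filter on low values at both times. They were chosen by their measured values: lower normalised read counts in knockout than in wild-type forebrain slices at 4 h, with Clk2 and Clk3 added as members of the family. Their 4 h difference is therefore given as a description, with no test. RNA-seq had been made from cultured slices of forebrain from mouse pups at postnatal day 4, all exposed to 5% horse serum, in 20 libraries. At 4 h there were 3 libraries labelled KO for TSG-6 (TSG-6-/-; the gene is Tnfaip6, which encodes a secreted hyaluronan-binding protein) and 3 labelled WT (TSG-6+/+). At 24 h there were 4 KO and 3 Het libraries from females, and 4 KO and 3 Het libraries from males, where Het stands for heterozygous. Titles and genotype fields give these controls as heterozygous, whereas the treatment text of the same samples calls the slices without the knockout WT; Het is used here after the titles. The medium of the serum is HBSS in the series text and DMEM in the sample protocols. By those titles the control genotype differed between the times, and no slices without serum were analysed here.

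CLK kinases are nuclear kinases that phosphorylate SR proteins, the serine- and arginine-rich factors that help choose splice sites, and so release them from nuclear speckles. Transcripts of several splicing regulators, Clk1 and Clk4 among them, are known to be kept partly in the nucleus with some introns unspliced, and splicing of those introns can be completed when conditions change. L-type cyclins bind CDK11 and act with it in splicing and transcription. Pabpn1 encodes the nuclear poly(A)-binding protein, which is known to limit its own level through a retained intron. Wsb1 encodes a substrate receptor of a ubiquitin ligase and Fnbp4 a WW-domain protein that binds formin.

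The introns that mark this family lie on either side of exon 4 in all 4 Clk genes. In the GENCODE vM21 annotation of GRCm38, at least 1 transcript of each Clk gene classed as retained intron runs through both introns that flank the fourth of 13 coding-transcript exons. The exons are shown because the 5′ and 3′ splice sites at their edges are the ones left uncut in those transcripts. Each line runs 5′ to 3′ along the transcript, with the exon in capitals and 20 bases of each flanking intron in lower case.
Clk1: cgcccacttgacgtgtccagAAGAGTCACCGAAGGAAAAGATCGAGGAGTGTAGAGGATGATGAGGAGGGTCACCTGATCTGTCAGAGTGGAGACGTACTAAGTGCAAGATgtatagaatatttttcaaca
Clk4: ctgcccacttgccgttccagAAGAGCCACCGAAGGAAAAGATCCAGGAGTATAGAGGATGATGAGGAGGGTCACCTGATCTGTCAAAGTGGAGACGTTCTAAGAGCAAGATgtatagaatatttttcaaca
Clk2: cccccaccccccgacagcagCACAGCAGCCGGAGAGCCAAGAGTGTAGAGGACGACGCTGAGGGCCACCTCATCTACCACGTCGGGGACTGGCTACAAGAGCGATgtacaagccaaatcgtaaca
Clk3: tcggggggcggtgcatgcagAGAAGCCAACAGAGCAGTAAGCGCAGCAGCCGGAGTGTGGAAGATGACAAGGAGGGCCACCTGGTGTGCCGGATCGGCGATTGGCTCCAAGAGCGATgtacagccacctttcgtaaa

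Exon 4 of Clk1 lies at chr1:58420121-58420211 (minus strand, 91 bases) and that of Clk4 at chr11:51273078-51273168 (plus strand, 91 bases). Exon 4 of Clk2 lies at chr3:89169618-89169702 (plus strand, 85 bases) and that of Clk3 at chr9:57758627-57758723 (minus strand, 97 bases). In a global alignment the Clk1 and Clk4 exons matched at 85 of 91 bases (93.4%), whereas the other 5 pairs matched at 63.6% to 66.3% of aligned positions. The exon lengths all leave 1 base past a multiple of 3, and each gene has an annotated transcript that skips exon 4 and is classed as a target of nonsense-mediated decay; Clk4 also has a skipping transcript classed as protein coding. Of the 13 annotated transcripts of Clk1 7 were classed as retained intron, as were 7 of 14 of Clk4, 4 of 11 of Clk2 and 4 of 9 of Clk3. Counts per gene sum all these forms, so no value below separates spliced from intron-containing RNA.

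**Figure D1:**
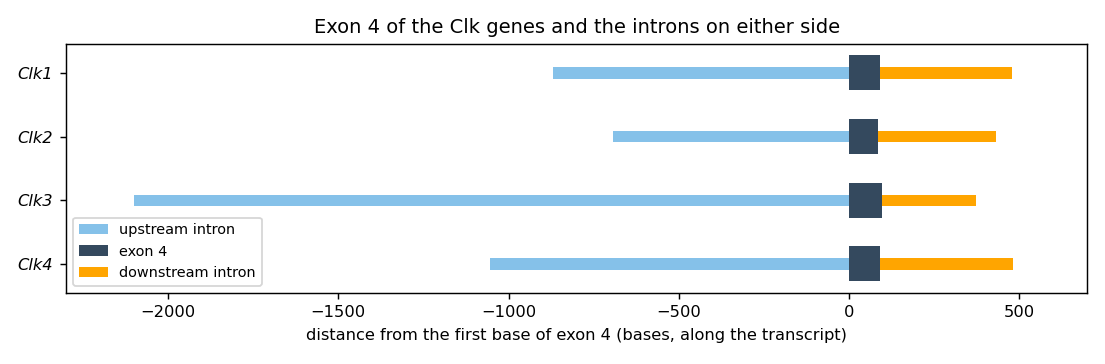
Lengths of exon 4 and of the introns on either side in the 4 Clk genes, in bases from the first base of exon 4 along the transcript. The upstream introns span 694 bases in Clk2 to 2100 bases in Clk3, whereas the downstream introns all lie between 276 and 391 bases.

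The other members differed in how far annotation gives them retained-intron forms. Ccnl1 had 8 such transcripts, Ccnl2 and Leng8 3 each, Wsb1 2, Pabpn1 1 and Fnbp4 none. Thus 9 of 10 members had at least 1, against 57.2% of the 13984 protein-coding genes tested at 4 h, and 7 of 10 had 3 or more, against 20.7%. These shares describe the annotation, in which genes with more transcripts and higher levels have more such forms. Apart from the members, genes with more of these forms had slightly lower KO values at 4 h. In log2 units the KO minus WT medians were 0.021 with none, 0.002 with 1 or 2, and -0.004 in the 2881 genes with 3 or more. Negative values made up 45.2%, 49.6% and 51.5% of these groups, in that order. Every KO library lay below every WT library in 7.98%, 8.76% and 9.68%, and above in 12.1%, 10.2% and 8.57%. Whether transcript number or level accounts for these small shifts was not tested.

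On GRCm38 the members lie on 8 chromosomes. On the plus strand are Clk2 (ENSMUSG00000068917) at chr3:89164795-89176921, Clk4 (ENSMUSG00000020385) at chr11:51261730-51281766 and Ccnl2 (ENSMUSG00000029068) at chr4:155812489-155824543, and further Leng8 (ENSMUSG00000035545) at chr7:4137039-4148177, Pabpn1 (ENSMUSG00000022194) at chr14:54892500-54898169 and Fnbp4 (ENSMUSG00000008200) at chr2:90745370-90781021. On the minus strand are Clk1 (ENSMUSG00000026034) at chr1:58410189-58424066, Clk3 (ENSMUSG00000032316) at chr9:57750624-57765860, Ccnl1 (ENSMUSG00000027829) at chr3:65946151-65958249 and Wsb1 (ENSMUSG00000017677) at chr11:79239372-79254671. Annotated genes overlap Clk3 (Edc3), Clk4 (BC049762), Ccnl1 (Gm37305), Leng8 (Leng9) and Fnbp4 (Rpl30-ps3) on the opposite strand, and Clk4 (Gm25082) and Pabpn1 (Gm20521) on the same strand. Since the strand setting of the counting is not given, reads of these genes cannot be told apart where their exons overlap. Of the 50-base words in the longest coding transcript, 27.3% in Pabpn1 and 4.23% in Leng8 also occur in transcripts of another gene.

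Library totals were 11411532 to 15030171 reads at 4 h and 8482933 to 18051300 reads at 24 h, so that members other than Pabpn1 had at least 272 reads in every library; Pabpn1 had 57 to 324. Tnfaip6 itself did not separate the genotypes: it averaged 65.7 ± 22.3 normalised reads in the KO-labelled and 81.4 ± 13.0 in the WT libraries at 4 h (SD, n = 3 each). At 24 h it averaged 6.51 ± 1.52 CPM in KO and 4.60 ± 1.08 CPM in Het females, and 6.70 ± 0.93 CPM in KO and 5.16 ± 1.24 CPM in Het males. The allele is not described, so reads of Tnfaip6 do not check the labels, and KO below means labelled KO. One library went against its sex label: KO female 2 at 24 h had 152 CPM of Y-linked genes and none of Xist. Het male 1 had 10.6 CPM of Xist beside 145 CPM of Y-linked genes, whereas the other male libraries had at most 0.550 CPM of Xist. Another 3 KO libraries at 24 h stood apart in Ttr, which encodes transthyretin and is a marker of the choroid plexus, the tissue that secretes cerebrospinal fluid. Ttr had 1472 CPM in KO female 1, 2706 in KO female 3 and 456 in KO male 3, against at most 0.778 CPM in the other libraries. At 4 h the labels give no sex, and the libraries numbered 1 of both genotypes carried Xist. The labels do not say whether different animals were used for the libraries, so p-values here describe spread among libraries, which may be technical in part. In bulk slices, fewer cells of a type and less RNA per cell cannot be told apart.

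At 4 h all 10 genes were lower in KO than in WT slices, by 13.1% (Clk2) to 36.8% (Pabpn1) of the WT mean. The median log2 fold change of the members was -0.48, against 0.00 over the 15181 genes tested. Negative values were found in 49.4% of all genes. In 8 members, all but Leng8 and Pabpn1, every KO library lay below every WT library, which was so for 8.88% of all genes. These counts follow from the way the genes were picked and are no evidence of their own.

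Within the kinase family the difference was largest in Clk1. Clk1 had 668, 539 and 639 normalised reads in the 3 KO libraries, against 976, 916 and 868 in the 3 WT libraries. The highest KO library was 200 reads below the lowest WT library. The means were 615 ± 67.7 in KO and 920 ± 54.0 in WT slices (SD, n = 3 each), a log2 fold change of -0.58 ± 0.09 (SE). Clk4, whose exon 4 is nearly the same as that of Clk1, had 346, 363 and 380 normalised reads in KO slices, against 498, 505 and 499 in WT slices, a log2 fold change of -0.46 ± 0.09. The WT libraries of Clk4 were the tightest group of any member, with an SD of 4.18 around 501.

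Clk3 and Clk2, which were added for their family, differed less. Clk3 averaged 607 ± 55.3 normalised reads in KO and 735 ± 49.0 in WT slices, a log2 fold change of -0.28 ± 0.09, and its highest KO library (668) was 35.2 reads below its lowest WT library (703). Clk2 averaged 397 ± 19.6 in KO and 457 ± 45.9 in WT slices, a log2 fold change of -0.20 ± 0.10. The Clk2 groups were only 6.92 reads apart, with 416 in the highest KO and 423 in the lowest WT library, and without WT library 1 its log2 fold change was -0.12. Of the 50-base words of Clk3, 19% also occur in transcripts of another gene, mostly Edc3. Clk1, Clk2 and Clk4 shared no 50-base word with another gene.

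The cyclin L genes lay between Clk2 and Clk1 in the size of their difference. Ccnl1 had 459, 368 and 421 normalised reads in KO slices, against 544, 515 and 556 in WT slices, a log2 fold change of -0.38 ± 0.10. Ccnl2 had 786, 513 and 759 in KO slices, against 1060, 796 and 1008 in WT slices, a log2 fold change of -0.49 ± 0.15. The Ccnl2 groups were separated by 10.6 reads, and KO library 2 was far below the other KO libraries. For Ccnl1, 18.7% of the 50-base words are shared with Gm37305, a gene on the opposite strand.

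Among the remaining members Wsb1 and Fnbp4 were the most evenly separated. Wsb1 had 1166, 853 and 1034 normalised reads in KO slices, against 1550, 1355 and 1515 in WT slices, a log2 fold change of -0.54 ± 0.10. Fnbp4, the member with no annotated retained-intron form, had 919, 822 and 884 in KO slices, against 1248, 1131 and 1143 in WT slices, a log2 fold change of -0.42 ± 0.08. The gap between the groups was 189 reads for Wsb1 and 212 reads for Fnbp4. Leng8 and Pabpn1 had large mean differences but overlapping groups. Leng8 had 1796, 876 and 1629 normalised reads in KO slices, against 2342, 1650 and 2215 in WT slices, a log2 fold change of -0.58 ± 0.20. Pabpn1 had 184, 104 and 195 in KO slices, against 286, 182 and 297 in WT slices, a log2 fold change of -0.68 ± 0.23. In both, the lowest WT library was number 2 and lay below the highest KO library. Between libraries of the same number, KO lay below WT in every case for these genes. With the number as a block, the SE was 0.095 for Leng8 and 0.11 for Pabpn1. Both genes were picked on these same libraries, so neither the order nor the smaller SE is evidence of its own.

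**Figure D2:**
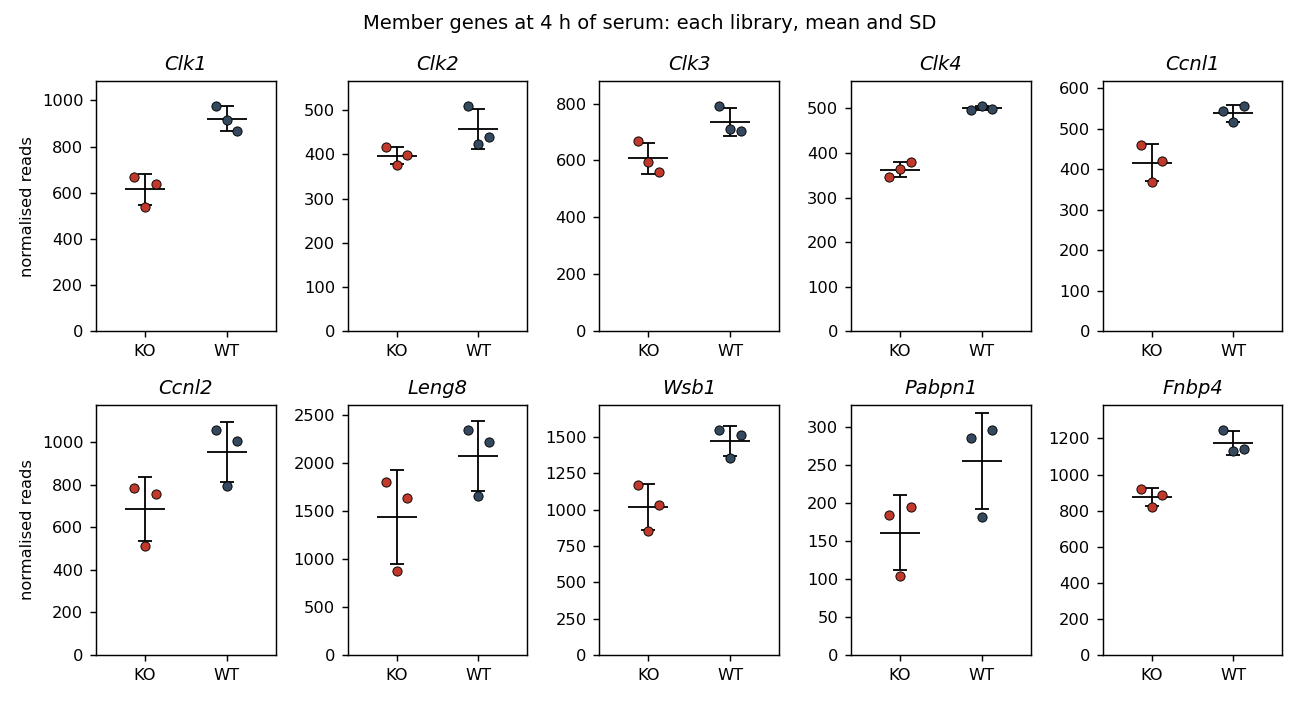
Normalised reads of the 10 members at 4 h in each KO (left) and WT (right) library, with the mean (line) and SD (bar), n = 3 each; each vertical axis starts at 0. The KO libraries lie below the WT libraries in 8 panels, and the groups overlap for Leng8 and Pabpn1.

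Part of the spread was carried by single libraries. KO library 2 was the lowest of the 6 for 8 of 10 members, all but Clk3 and Clk4, and WT library 1 was the highest for 7. Without KO library 2 the median log2 fold change of the members was -0.34, and the values of Leng8 (-0.26), Pabpn1 (-0.39) and Ccnl2 (-0.30) shrank most, whereas Clk1 stood at -0.49. KO library 2 also had the highest read total (15030171) and the lowest share of mitochondrially encoded reads (0.836%, against 1.10% to 1.24% in the other 5); the part of these in the result was not tested. Without both Xist-carrying libraries, an alternative chosen after seeing the data, the median was -0.48. In the test over all genes, 5 genes were lower in KO slices by limma's adjusted p (0.0329% of those tested). With the library number added as a block there were 27 (0.178%). The labels do not state that equal numbers mark pairs, so calls made only with the block depend on that reading. Calls of members are not given, since the members were picked on this contrast.

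Levels between genes were compared per length, as reads scaled to annotated exon length in kilobases and to library total (RPKM). On that scale Wsb1 (19.4 in KO, 28.9 in WT) and Leng8 (17.1 in KO, 25.3 in WT) were the highest at 4 h, with SDs of 3.07 and 5.91 in KO and of 2.32 and 4.72 in WT slices. In KO slices they were closer to each other than either SD, and in WT slices closer than the SD of Leng8 but not that of Wsb1. Fnbp4 (10.1 in KO, 13.9 in WT) and Ccnl2 (9.89 in KO, 14.1 in WT) followed, again without a difference beyond their SDs. The 4 kinases, Ccnl1 and Pabpn1 lay close together, between 4.05 and 5.76 in KO and between 6.57 and 8.83 in WT slices. Among them Clk1 (8.83 ± 0.50) exceeded Clk4 (6.74 ± 0.04) by more than their SDs in WT slices, but in KO slices Clk1, Clk2, Clk3 and Ccnl1, in that order, each lay within an SD of the next (5.76 to 5.28). Annotated exon sequence here includes retained introns, which make up 63.8% of it in Clk1 and none in Fnbp4. Levels of intron-rich genes are understated on this scale if those bases hold few reads, which was not measured.

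At 24 h, with Het slices as controls, no difference between the genotypes was called for these genes. No member passed edgeR's quasi-likelihood test (Benjamini-Hochberg adjusted p under 0.05) in KO against Het slices averaged over the sexes, in females, in males or in the difference between the sexes, and neither did any of the 16013 genes tested (0% in each of the 4 comparisons). At an unadjusted p under 0.05 there were 1060, 657, 1100 and 618 genes in these comparisons, and DESeq2 called 5, 1, 1 and 1. Averaged over the sexes, 7 of 10 members had positive log2 fold changes, against 50% of all genes, with a median of 0.02.

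Clk1 at 24 h had 64.5, 62.9, 47.8 and 56.2 CPM in KO females, against 49.8, 50.4 and 55.6 CPM in Het females. In males it had 55.4, 60.6, 53.8 and 63.8 CPM in KO slices, against 59.8, 53.5 and 84.5 CPM in Het slices. The groups overlapped in both sexes, and 1 Het male library stood far above all others. The averaged log2 fold change of Clk1 was -0.01 ± 0.09 (95% interval -0.22 to 0.20; edgeR adjusted p = 0.994), and an exact two-sided permutation test within sexes gave p = 0.993. Clk4 had 49.8, 43.8, 33.1 and 41.0 CPM in KO females, against 33.5, 30.9 and 36.7 CPM in Het females. In males Clk4 had 38.4, 42.0, 41.0 and 44.4 CPM in KO slices, against 35.2, 36.9 and 49.5 CPM in Het slices. These groups overlapped in both sexes as well. Its averaged log2 fold change was 0.17 ± 0.09 (95% interval -0.03 to 0.38; edgeR adjusted p = 0.775; exact permutation p = 0.134). Clk2 (0.02 ± 0.06) and Clk3 (-0.01 ± 0.08) were near 0, with 95% intervals from -0.12 to 0.15 and from -0.19 to 0.17.

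Of the other members Leng8 had the largest averaged value at 24 h. It had 94.9, 82.4, 87.3 and 88.6 CPM in KO females, against 70.0, 73.3 and 65.0 CPM in Het females, and every KO library lay above every Het library. In males it had 81.8, 105, 82.6 and 105 CPM in KO slices, against 71.3, 77.8 and 128 CPM in Het slices, and the groups overlapped through the last library. The averaged log2 fold change was 0.18 ± 0.11 (95% interval -0.06 to 0.43; edgeR adjusted p = 0.810). Wsb1 and Ccnl2 also had all 4 KO female above all 3 Het female libraries: Wsb1 had 97.1 to 103 CPM in KO and 80.2 to 92.8 CPM in Het females, and Ccnl2 had 53.2 to 63.9 CPM in KO and 49.5 to 51.2 CPM in Het females. These 3 of 10 members stand against 2.3% of all genes. Members varied together between libraries, as given below, so counts of members at 24 h are not counts of separate observations. All 10 members had positive log2 fold changes in females (median 0.14), against 51.2% of all genes, the range being 0.08 to 0.35. None passed, with edgeR adjusted p-values of 0.9998 for each, and 1 of the KO female libraries is the one against its sex label; without it the median was 0.17 and all 10 remained positive. The 6 choroid plexus and ependyma markers summed to 62.5 to 2892 CPM in KO females, against 59.3 to 75.2 CPM in Het females, and to 57.7 to 529 CPM in KO males, against 59.8 to 81.1 CPM in Het males; their median log2 fold change averaged over the sexes was 0.83, and none passed. Without the 3 Ttr-carrying libraries, an alternative chosen after seeing the data, 9 of 10 members were positive in females, all but Pabpn1 (-0.085), with a median of 0.17.

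In males the same contrast rested on 1 library. Het male 3 was the highest of the 14 libraries in 9 of 10 members, against 10.3% of all genes, and for Clk4 it was second to KO female 1 (49.5 against 49.8 CPM). It had 179 CPM of Wsb1, against a median of 96.4 over the 14 libraries, 102 CPM of Ccnl2, against 54.9, and 18.2 CPM of Pabpn1, against 7.99. It had 58.1 CPM of Clk3, against a median of 43.8, but only 37.9 CPM of Clk2, against 30.7. With it, 6 of 10 members had negative log2 fold changes in males, against 50.3% of all genes, with a median of -0.09. Without it, all 10 were positive, against 50.1%, with a median of 0.20 and a range of 0.01 to 0.32, and none passed (lowest edgeR adjusted p = 0.751). Het male 3 was singled out by the members' own values. Leaving out the highest Het male library raises KO minus Het by construction, so this shift is no evidence of its own.

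The contrast between the sexes moved in the same way. The KO minus Het difference was lower in males than in females for all 10 members, against 49.9% of all genes, with a median of -0.29. The values ran from -0.43 (Wsb1) to -0.02 (Fnbp4), and every edgeR adjusted p was at least 0.977. Without Het male 3 only 6 of 10 were negative, with a median of -0.02. Averaged over the sexes without Het male 3, all 10 members were positive, against 51% of all genes, with Leng8 at 0.34 (edgeR adjusted p = 0.287) and Clk4 at 0.26 (0.508). These shifts without Het male 3 follow from how it was singled out and are no evidence of their own. Males minus females was positive for all 10 members, against 48.4% of all genes, with a median of 0.16 with Het male 3 and 0.07 without it. In that contrast 3 genes passed the test (0.0187%), none of them a member.

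**Figure D3:**
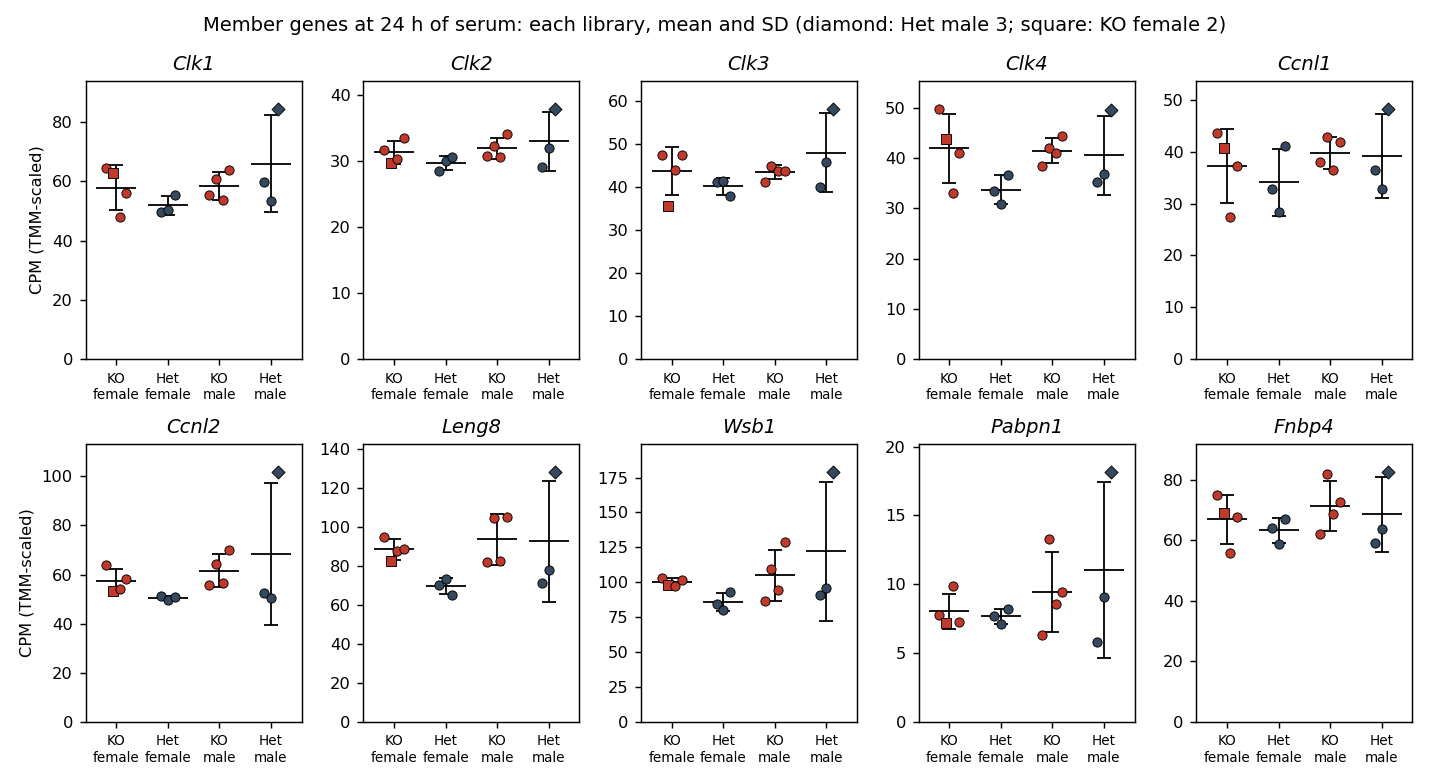
TMM-scaled CPM of the 10 members at 24 h in each library of the 4 groups, with the mean (line) and SD (bar), n = 4 for KO and 3 for Het; each vertical axis starts at 0. The diamond, Het male 3, is at the top of the Het male group in all 10 panels, and the square is KO female 2, which goes against its sex label.

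**Figure D4:**
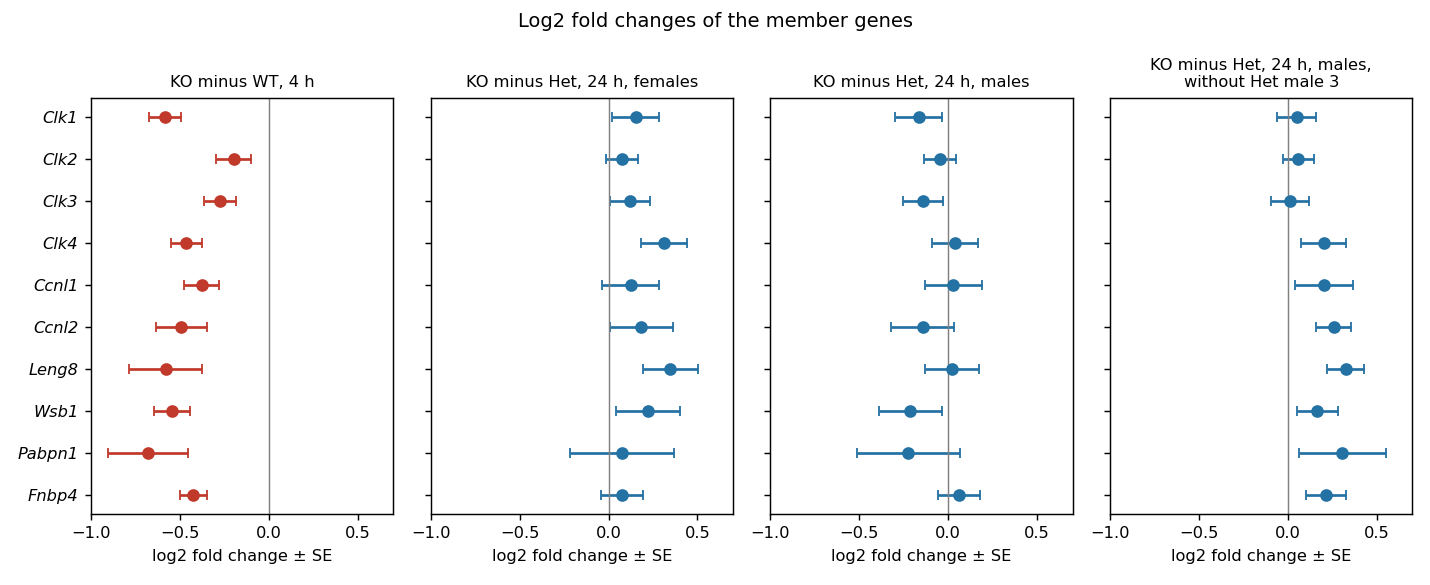
Log2 fold changes of the members with SE, from limma for KO minus WT at 4 h (left, n = 3 each) and from edgeR for KO minus Het at 24 h (n = 4 KO and 3 Het per sex). All 10 values lie below 0 at 4 h and above 0 in females at 24 h; in males 6 lie below 0, and none does when Het male 3 is left out.

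The members varied together between libraries of the same group at 24 h. Most were picked on 4 h values, with earlier results of these data known. Genes that vary together may share such values, so this relation may not be independent of the choice. Deviations of log2 CPM from the group means at 24 h had a median Pearson r of 0.74 over the 45 pairs of members, and r was at least 0.5 in 38 pairs (84.4%), against 7.62% of all gene pairs. Without Het male 3, an alternative chosen after seeing the data, the median was 0.50 and 23 pairs (51.1%) reached 0.5, against 8.66% of all pairs. All values share the same libraries and are given as descriptions.

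Without that library the values of r differed more between pairs of members. Clk1, Clk4, Ccnl1 and Fnbp4 kept r values of 0.72 to 0.90 with each other over the remaining libraries, with 0.85 for Clk1 with Clk4 and 0.90 for Clk1 with Ccnl1. Ccnl2, Wsb1 and Leng8 kept values of 0.70 to 0.81 among themselves. These sets were not apart from each other: values between them ran from 0.096 (Ccnl1 with Leng8) to 0.62 (Ccnl2 with Fnbp4). Clk2 had 0.68 with Wsb1 and 0.62 with Leng8. Between Clk1 and Clk3 the value was -0.26, between Clk1 and Pabpn1 -0.13 and between Clk1 and Clk2 0.23. Over all 14 libraries, Clk1 with Clk4 stood at 0.90, Clk2 with Clk3 at 0.79, and Clk1 with Clk3 at 0.38.

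**Figure D5:**
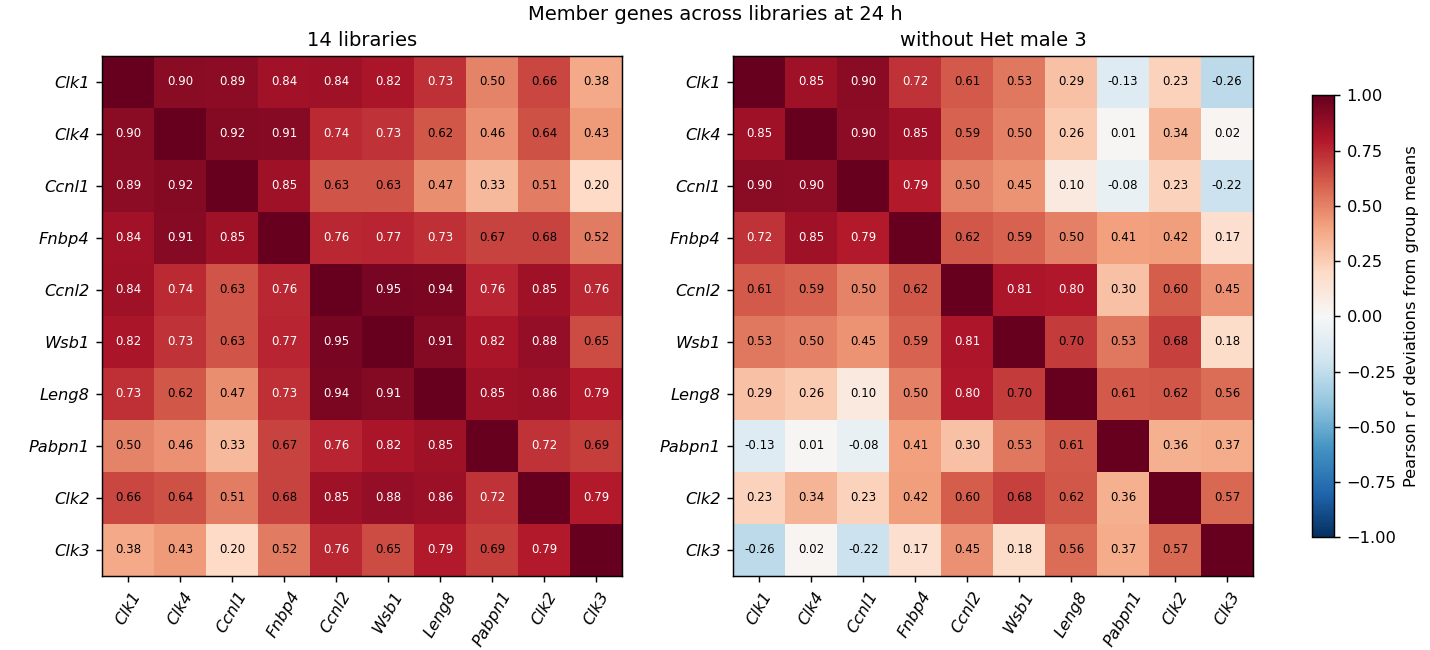
Pearson r between members of their deviations from genotype and sex group means at 24 h, over 14 libraries (left) and without Het male 3 (right). Clk1, Clk4, Ccnl1 and Fnbp4 stay at 0.72 or above in the right panel, whereas Clk3 and Pabpn1 stand near or below 0 with Clk1.

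Across the 14 libraries, without removing group means, Clk1 was set against each of the other 9 members by permutation tests with Benjamini-Hochberg adjustment. The r with Ccnl1 was 0.86 (rho 0.93, permutation adjusted p = 0.00018) and was 0.85 without the 2 libraries farthest from the median of Clk1, Het male 3 and KO female 3. The r with Clk4 was 0.83 (rho 0.89, permutation adjusted p = 0.000315) and 0.82 without them. For Ccnl2, Wsb1, Fnbp4 and Leng8 r was 0.87, 0.87, 0.78 and 0.74, and 0.71, 0.76, 0.61 and 0.65 without them. For Clk2 (0.74), Pabpn1 (0.56) and Clk3 (0.54) r was 0.42, 0.18 and 0.05 without them, so these relations rest on those libraries. In a second family of 5 measures Clk1 followed Malat1, the long noncoding RNA of nuclear speckles (r 0.87, rho 0.81, permutation adjusted p = 0.00035; 0.83 without the 2 libraries). Malat1 had 95.5 CPM in Het male 3, against 36.4 to 74.7 CPM in the other libraries. With the mean of immediate early genes r was 0.47 (permutation adjusted p = 0.145) and 0.58 without the 2 libraries, and by rank the relation passed (rho 0.64, permutation adjusted p = 0.0368). The r with the library total was -0.50 (rho -0.49, and r -0.30 without the 2 libraries), with the mitochondrial share 0.29 (rho 0.20, 0.31 without them) and with the ribosomal protein share 0.24 (rho 0.04, -0.18 without them). By r the permutation adjusted p-values of these 3 were 0.145, 0.377 and 0.407, and by rho 0.127, 0.619 and 0.902.

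The genes most like the members' mean profile across the 14 libraries were Paxbp1 (r 0.96), Rbm33 (0.94), Zmym6 (0.94), Rbm5 (0.93), Entr1 (0.93), Abcc5 (0.93), Pfkp (0.93), Thbs3 (0.93), Arglu1 (0.92) and Plekha1 (0.91), among genes of at least 10 CPM. These values rest in part on Het male 3: without it they ran from 0.69 (Plekha1) to 0.92 (Paxbp1), with Arglu1 next at 0.88 and Rbm5 at 0.78. Rbm5 encodes a splicing factor and Arglu1 a splicing coactivator. Likeness was measured at 24 h, but to a profile of genes mostly picked for lower KO values at 4 h. Each of these 10 genes had a negative log2 fold change at 4 h, from -0.49 (Arglu1) to -0.09 (Plekha1). None passed limma's test (adjusted p from 0.165 to 0.655). Arglu1 had 998 ± 220 normalised reads in KO and 1382 ± 126 in WT slices at 4 h (SD, n = 3 each). Of the 100 most like genes 92 were negative at 4 h, with a median of -0.22, against 43.6% and 0.02 over the 10846 genes of that level. In 31 of the 100 every KO library was below every WT library, against 7.86%, and none passed the test. Genes that vary with the members may share the 4 h values by which these were picked, so the counts are no independent evidence.

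Lists of other splicing genes had medians between -0.13 and 0.07 at 4 h. The members' median is no yardstick for them, since most members were picked for low KO values at 4 h. Of 24 speckle and intron-retaining splicing regulators 23 had negative values, with a median of -0.13 and none past the threshold; Ddx5, an RNA helicase and the most abundant, had 10076 ± 68.1 normalised reads in KO and 10844 ± 184 in WT slices. Of 13 SR proteins and Tra2 factors, the substrates of the CLK kinases, 9 were negative (median -0.12, none past the threshold), with Srsf3 at 0.04 ± 0.07 and Srsf11 at -0.22 ± 0.06. The SRPK, DYRK and HIPK kinases, relatives and partners of CLKs in phosphorylation, had 3 of 11 negative (median 0.07). Srpk2 had 2557 ± 44.5 normalised reads in KO and 2531 ± 46.0 in WT slices. Dyrk3, the most changed of them, was at 0.40 ± 0.17. The core spliceosome had 15 of 28 negative with a median of -0.00, Sf3b1 at -0.20 ± 0.06 and Prpf8 at 0.03 ± 0.07. Transcription kinases and their cyclins (4 of 13 negative, median 0.05, Cdk11b -0.02 ± 0.07, Cdk19 0.21 ± 0.09) held no called gene either. At 24 h no gene of any of these lists passed, and the medians lay between -0.03 and 0.07.

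Lists around the remaining members gave similar values. Nuclear poly(A) tail and RNA decay factors had 10 of 14 negative with a median of -0.05 (Pabpc1 -0.06 ± 0.07, Zfc3h1 -0.14 ± 0.08). TREX-2 and mRNA export genes had 8 of 12 negative with a median of -0.04 (Nxf1 -0.12 ± 0.07, Cetn2 -0.19 ± 0.11). The WSB list had 4 of 9 negative, and Wsb2, the paralogue of Wsb1, had 5102 ± 187 normalised reads in KO and 4448 ± 181 in WT slices, a log2 fold change of 0.20 ± 0.06 (limma adjusted p = 0.208). No gene of these 3 lists passed at either time. Heat shock genes had 11 of 14 negative with a median of -0.09. Hspa1b, at -0.94 ± 0.39, passed only with the replicate block (limma adjusted p = 0.301 without it and 0.0451 with it). Hsp90ab1, the most abundant of them, was at 0.05 ± 0.07.

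Immediate early genes and nuclear long noncoding RNAs had negative medians at 4 h as well. Of 17 immediate early genes 16 were negative, with a median of -0.50; Fos (-0.81 ± 0.11), Egr1 (-0.49 ± 0.07) and Nr4a1 (-0.88 ± 0.11) fell in KO slices by limma's test (adjusted p = 0.0161, 0.0161 and 0.0128), and 7 did so with the block, Fosb (-1.01 ± 0.19) among them. Without WT library 1 a single gene of all those tested passed, and without WT library 2 only 2, so calls among these 3 were lost. At 24 h, averaged over the sexes, all 17 were positive with a median of 0.40, and none passed. Of 11 nuclear long noncoding RNAs 10 were negative, with a median of -0.60 and 3 past the threshold with the block only. Rian, the most abundant of them, was at -0.10 ± 0.07 (limma adjusted p = 0.526). Malat1 had 573, 388 and 608 normalised reads in KO slices, against 1151, 689 and 954 in WT slices, a log2 fold change of -0.83 ± 0.18 (limma adjusted p = 0.0965, and 0.00352 with the block). Its lowest library was KO library 2 and its highest WT library 1, as for most members.

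Summed markers of several cell types also stood apart between the genotypes at 4 h, and their part in the members' values was not tested. Summed over the list, the 7 endothelial and pericyte markers had 3869 to 4077 normalised reads in KO and 4563 to 5144 in WT slices, with all 7 negative, Rgs5 at -0.37 ± 0.09. All 4 choroid plexus and ependyma markers tested were negative, the 6 in the table summing to 471 to 641 in KO and 740 to 915 in WT slices. All 6 meningeal markers (1624 to 2549 in KO, 2237 to 2824 in WT) and all 7 of astrocytes and radial glia (23045 to 23636 in KO, 23693 to 27889 in WT) were negative. Of 7 microglial markers 5 were negative (1165 to 1377 in KO, 1178 to 1519 in WT), of 7 of the oligodendrocyte lineage 6 (5304 to 5776 in KO, 5448 to 6349 in WT), and of 5 erythroid markers 4 (1028 to 1590 in KO, 1467 to 1616 in WT). Neuronal markers went the other way, with 2 of 9 negative and sums of 91800 to 97373 in KO and 84162 to 88494 in WT slices. The neuronal list was the most abundant, with Stmn2, a tubulin-binding protein of neurons, at 25258 ± 1266 normalised reads in KO and 23831 ± 1082 in WT slices. No marker was at 0, and none passed limma's test without the block; Slc17a7, a transporter of excitatory neurons (0.45 ± 0.11), passed with it (adjusted p = 0.0337). At 24 h Het male 3 had the lowest neuronal sum (5428 CPM) and the lowest sum of astrocyte markers (3029 CPM) of the 14 libraries, and the highest sums of endothelial markers (336 CPM) and nuclear long noncoding RNAs (2934 CPM).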

How the data were processed

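Per the submitters' processing notes, TopHat2, HTSeq and DESeq2 1.38.3 were used with the build GRCm38 (mm10); which tool made which values, the strand setting and the annotation release are not stated. Raw read counts per gene are what the authors deposited for 24 h. For 4 h the authors deposited a normalised signal, namely read counts over 1 size factor per library, and whole reads came out of 100.0% of its values within a tolerance of 0.05.

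The 10 genes and the gene lists were chosen with earlier results of these data known. At 4 h limma 3.58.1 (R 4.3.3) with a trend was run on log2(value + 1), keeping the 15181 genes whose mean value was 10 or more, so fold changes are on that scale, which understates those of low genes. At 24 h edgeR 4.0.16 was used with TMM scaling, its expression filter (16013 genes) and its quasi-likelihood test, with 1 mean per genotype and sex. P-values were two-sided and Benjamini-Hochberg adjusted over all genes, with a threshold of 0.05; the 95% intervals are from the SE. DESeq2 1.42.0 was an alternative. Correlations used 100000 permutations. Named genes are the members, the most abundant and the most changed gene of each list (mean of at least 100) and list genes past the threshold. The 10 genes most like the members' profile and Tnfaip6 are named too. Of the cell type lists only some of these genes are named.

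At 4 h, libraries with the same number deviated together (r of 0.264, 0.140 and 0.176), and the numbers were taken as pairing on that ground. The labels do not state a pairing, and these r values come from the same libraries as the calls. The Xist-carrying libraries of both genotypes also share a number. Whether the numbers mark true pairs cannot be decided from so few libraries. Blocked values are given where they change a call, and calls made only with the block depend on this reading of the numbers. Ensembl identifiers were matched to symbols for 19673 and 51633 identifiers. Exon sequences and coordinates are from GENCODE vM21. Read numbers speak to counting error only, and not in full, since PCR copies are not independent molecules.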

Additional observations from a re-analysis of the deposited data

How the results depend on the processing

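All 10 members stayed lower in KO slices at 4 h under every alternative run. Their median of -0.48 ran from -0.53 to -0.34 when single libraries were left out, the last being without KO library 2. Most members were picked for low KO values in these same libraries, so their staying lower is no evidence of its own. The count of genes past the threshold at 4 h was 7; it was 161 with DESeq2 on the recovered reads, 38 with the replicate block, 1 without both Xist libraries, and 1 to 211 when each library was left out. At 24 h the counts of 0 averaged over the sexes, in females, in males and in the difference, and of 3 between the sexes, became 263, 180, 220, 165 and 215 with no filter on low counts and 5, 1, 1, 1 and 5 with DESeq2. The block gave 1 averaged over the sexes and 1 in females, and the sex contrast had 9 without the library against its sex label. Leaving out single libraries gave 0 to 2 averaged over the sexes (2 without Het male 3) and 2 to 9 between the sexes. With no filter on low counts Leng8 passed in females, Wsb1 in the difference, and Ccnl2, Leng8 and Wsb1 between the sexes. The cause was not tested.

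The numbers did not pair the 24 h libraries (r from -0.15 to 0.20). The replicate block turned the averaged value of Clk2 to -0.018, of Ccnl2 to -0.00119 and of Wsb1 to -0.037; no filter turned Wsb1 to -0.00196, and leaving out the library against its sex label turned Clk3 to 0.028. Leaving out the 3 Ttr-carrying libraries, chosen after seeing the data, turned Clk1 to 0.036 averaged over the sexes and Pabpn1 to -0.085 in females, and left 0 genes called between the sexes (506 at an unadjusted p under 0.05, edgeR). With single libraries left out, averaged values ran from -0.076 to 0.10 (Clk1), -0.024 to 0.068 (Clk2), -0.065 to 0.067 (Clk3), -0.072 to 0.22 (Ccnl2), -0.081 to 0.19 (Wsb1) and -0.22 to 0.19 (Pabpn1). In females Pabpn1 ran from -0.045 to 0.13. In males the ranges were -0.31 to 0.049 (Clk1), -0.12 to 0.059 (Clk2), -0.25 to 0.011 (Clk3), -0.049 to 0.20 (Clk4), -0.093 to 0.20 (Ccnl1), -0.33 to 0.26 (Ccnl2), -0.13 to 0.32 (Leng8), -0.38 to 0.17 (Wsb1), -0.51 to 0.31 (Pabpn1) and -0.032 to 0.21 (Fnbp4), each at its highest without Het male 3. For the difference between the sexes they were -0.25 to 0.077 (Ccnl1), -0.51 to 0.070 (Ccnl2), -0.59 to 0.23 (Pabpn1) and -0.11 to 0.13 (Fnbp4). On CPM from library totals, r of Clk1 with Clk3 and with Pabpn1 was 0.59 each. Both then passed by r (permutation adjusted p = 0.0450 each, against 0.0589 and 0.0546 in the main setting). By rank they did not (rho 0.30 and 0.16), and r was 0.05 and 0.18 without Het male 3 and KO female 3. Pabpn1, with as few as 57 reads in a library, is the member most limited by depth.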
